A study of Oryza sativa with 18 samples.

Results

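In rice germinated in air, regions picked because their methylation differed between the dry seed and 24 h of culture stood slightly lower again in the coleoptile at 4 d than in the embryo at 24 h. The comparison used 6 of the 18 MethylC-seq libraries of the series, 3 from coleoptiles after 4 d in air and 3 from embryos after 24 h in air. It covered all 5908 regions of the table that the authors made for the dry seed against 24 h in air and 24 h in nitrogen. MethylC-seq sequences DNA after bisulfite has converted unmethylated cytosines. The methylation level of a region is its methylated read value as a percent of its total read count. Whether a read is counted again at each of its cytosines is not stated, so the reads given here need not be separate molecules. A level was used where a library had 10 or more reads in the region. All 6 libraries met this in 5706 regions, and the other 202 regions had at least 1 thinner library.

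All plants were wild-type Oryza sativa cv Amaroo, de-hulled, sterilised and kept in the dark at 30 °C in MES medium. The medium was bubbled with air for 4 d or 24 h in the groups compared, and with nitrogen gas for 4 d or 24 h in the 2 groups set beside them. Dry seed embryos, taken at 0 h with no culture, and coleoptiles given 3 d of nitrogen and then 1 d of air completed the series, with 3 libraries in each of the 6 groups. No label states whether the 3 libraries of a group are from separate cultures. The p-values therefore reflect the spread among these libraries alone, and that spread may be technical. The 4 d libraries came from whole coleoptiles freed of the primary leaf and the 24 h libraries from whole embryos, so time and organ cannot be told apart. Both are mixtures of cells, and a smaller share of methylated cells cannot be told apart from less methylation per cell. Bisulfite libraries carry no expression markers against which the tissue labels could be checked.

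In plants, cytosine methylation sits in several sequence contexts. Maintenance methyltransferases copy it after replication, the RNA-directed pathway renews it at transposons and repeats, and DNA glycosylases of the ROS1/DME family remove it. The coleoptile is the sheath that carries the rice shoot through water or soil, and it lengthens largely by cell expansion. The column names of the table carry CG and the names of the region sets carry CNN, which leaves open which cytosines were counted. Positions follow the authors' table, which names no genome build, and neither genes nor sequences were assigned.

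Region length ran from 3 to 393 bp, both ends counted, with a median of 58 bp and a median of 7 differentially methylated sites by the authors' count. The 4 d air libraries held 865237 to 955171 reads over the regions, with medians of 114 to 126 reads per region, against 977733 to 1147172 reads and medians of 129 to 153 in the 24 h air libraries. These totals cover the regions only and are not the depth of a library. The regions were picked with the 24 h libraries and without the 4 d libraries, going by the authors' name for the set. At the edge of the 10-read limit, the region on chromosome 1 from 3800973 to 3800984 was kept with 10 reads in its thinnest air library and stood at 59.6% in 4 d air and 51.0% in 24 h air. The region on chromosome 1 from 20069883 to 20069927 had 9 reads in 1 library of 24 h air, and it had no methylated read in the other 5 air libraries.

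The mean level over the 5706 regions was 23.7%, 22.9% and 23.6% in the 3 libraries of 4 d air, against 25.3%, 27.5% and 26.1% in those of 24 h air. Each 4 d library stood below each 24 h library, and the highest at 4 d lay 1.63 points under the lowest at 24 h. The group means were 23.4% ± 0.417 in 4 d air and 26.3% ± 1.11 in 24 h air (SD, n = 3 each), a difference of -2.92 percentage points with a standard error of 0.686. In relative terms the 4 d level was 11.1% under the 24 h level. An exact two-sided permutation test gave p = 0.1, which 3 libraries against 3 cannot go below. The 3 libraries of 24 h air spread over 2.20 points among themselves, and those of 4 d air over 0.761 points. Library 2 of 24 h air was the highest of the 6 and also had the most reads over the regions, and without it the difference was -2.33 points.

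The step was small beside the one before it. The same regions stood at 68.0% ± 1.63 in the dry seed (SD, n = 3), and the step from 24 h to 4 d in air made up 6.55% of the whole distance between the dry seed and the 4 d coleoptile. Going by the name of the set, the regions were picked for the earlier step and not for the later one. The share therefore sets a selected step against an unselected one and holds for these regions only. In nitrogen no step from 24 h to 4 d was seen in the means. Over the 5606 regions with 10 or more reads in all 12 libraries of air and nitrogen, the level was 29.6% ± 0.650 in 4 d nitrogen and 29.6% ± 0.212 in 24 h nitrogen, a difference of -0.0258 points. In the same regions it was 23.5% ± 0.413 in 4 d air and 26.4% ± 1.13 in 24 h air, a difference of -2.95 points. The difference in air minus that in nitrogen was -2.92 points with a standard error of 0.800 (n = 3 libraries in each of 4 groups).

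That contrast between the gases did not pass a test. The exact two-sided permutation test of the gas labels within each time, with 400 arrangements, gave p = 0.365. These arrangements also carry the gap between air and nitrogen, which was -6.08 points at 4 d and -3.16 points at 24 h. An exact permutation of the times within each gas, chosen after seeing the data, gave p = 0.06. Per region, the interaction in the quasi-binomial model with Benjamini-Hochberg adjustment called 0 of 5840 tested regions (0% called), with a smallest adjusted p of 0.0662. At an unadjusted p under 0.05 it had 273 regions (4.67%) with a lower and 33 (0.565%) with a higher step in air than in nitrogen.

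**Figure D1:**
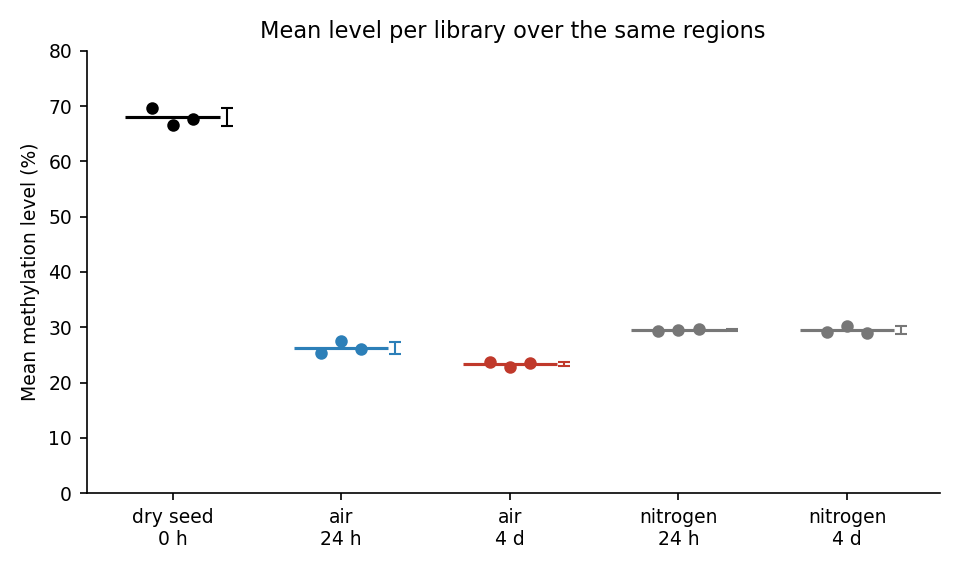
Mean methylation level per library, in percent, over the regions with 10 or more reads in all 6 air libraries, for the dry seed, air at 24 h and 4 d, and nitrogen at 24 h and 4 d. Points are libraries, horizontal lines are group means, and bars are ±1 SD of 3 libraries. The 3 points of 4 d air (22.9% to 23.7%) lie under the 3 of 24 h air (25.3% to 27.5%), and the 2 nitrogen groups overlap.

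Single regions spread widely around this shift. The difference of group means was below 0 in 3894 of the 5706 regions, above 0 in 1793 and exactly 0 in 19. The median region stood 2.51 points lower at 4 d, as its difference of -2.51 shows, with an interquartile range of -7.22 to 0.975 points and a range of -42.3 to 45.6 points. Differences of less than 5 points in either direction made up 53.5% of the regions. The level was at least 10 points lower in 866 regions and at least 10 points higher in 236.

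Regions with all 3 libraries of 4 d air below all 3 of 24 h air numbered 1054 of 5706 (18.5%), and the opposite order was found in 232 (4.07%). In nitrogen the same counts were 390 of 5708 (6.83%) for 4 d below 24 h and 351 (6.15%) for 4 d above. Between libraries of 1 group, the median absolute difference of a region was 4.51 to 4.64 points in 4 d air and 5.09 to 5.24 points in 24 h air. Between the 4 d and the 24 h air libraries it was 5.55 to 6.38 points over the 9 pairs. A typical region therefore differed between the times by little more than between libraries of the same time.

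**Figure D2:**
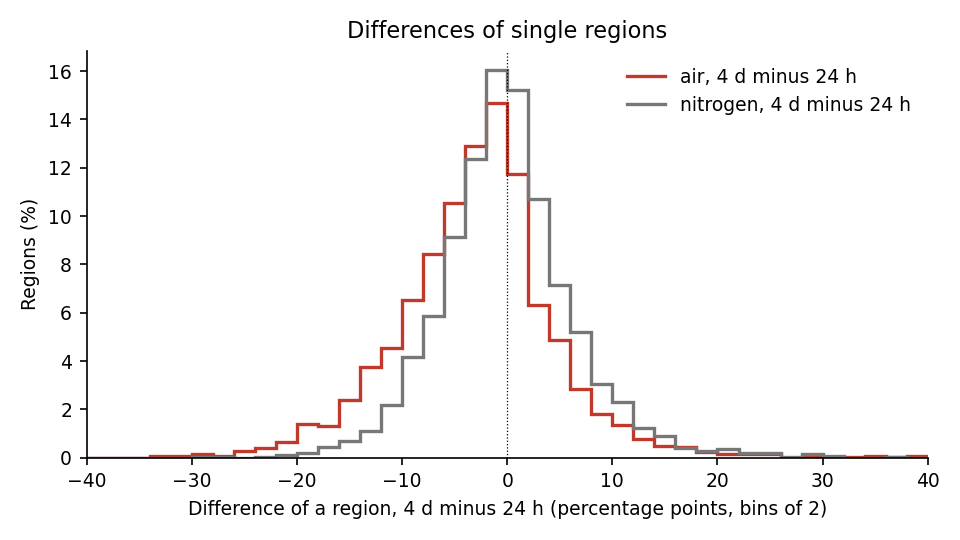
Distribution of the difference of single regions, 4 d minus 24 h, in percentage points on the horizontal axis, with the percent of regions per bin on the vertical axis, for air (red) and nitrogen (grey). The air curve lies to the left, with a median of -2.51 points against -0.278 in nitrogen, and both have wide tails. The axis is limited to 40 points on either side.

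Regions with little methylation were more numerous in the 4 d coleoptile. Regions with a mean level under 10% numbered 1711 at 4 d in air and 1214 at 24 h, and those at 50% or more numbered 539 and 660 in the same order. In 600 regions the mean was under 10% at 4 d and between 10% and 50% at 24 h, while the reverse held in 103. No methylated read was seen in any of the 3 libraries in 83 regions at 4 d and in 42 at 24 h, with 19 regions in both sets. The 4 d libraries also held fewer reads per region, and the part of depth in these counts was not tested.

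The quasi-binomial model passed only 2 regions, both lower at 4 d. It had 2 of 5866 tested regions lower (0.0341% called) and 0 higher (0% called), the thresholds being 0.05 for the Benjamini-Hochberg adjusted p and 10 points for the difference. At an unadjusted p under 0.05 there were 578 lower regions (9.85%) and 65 higher regions (1.11%). In nitrogen the same unadjusted threshold gave 117 lower (1.99%) and 103 higher (1.76%) of 5866, and the model called 0 regions lower and 1 higher. Limma on the levels called 4 regions lower and 0 higher, and 1 of the 4 was among the 2 of the quasi-binomial model. With the spread taken from the 2 air groups alone the model called 0 regions, with 609 lower and 94 higher at an unadjusted p under 0.05.

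The region on chromosome 3 from 31261714 to 31261758 was nearly emptied. It is 45 bp long with 5 differentially methylated sites. In 4 d air its levels were 0% of 49 reads, 1.92% of 104 and 3.99% of 100, against 41.3% of 70 reads, 28.6% of 115 and 22.8% of 118 in 24 h air. The groups did not overlap. The 0 methylated of 49 reads allows a level of up to 6.12%, for counting error only and if the 49 are separate reads. The means were 1.97% ± 2.00 in 4 d air and 30.9% ± 9.47 in 24 h air (SD, n = 3 each), a difference of -29.0 points with an adjusted p of 0.0498 in the quasi-binomial model. The dry seed stood at 73.1% ± 1.98, and nitrogen at 19.4% ± 1.69 at 4 d and 28.3% ± 5.59 at 24 h. In nitrogen the difference was therefore -8.96 points, and the adjusted p of the interaction was 0.388 in the same model.

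On chromosome 7, the region from 8056030 to 8056102 was more deeply read and lost less. It is 73 bp long with 7 sites. In 4 d air it stood at 36.5% of 407 reads, 33.5% of 357 and 31.7% of 466, against 52.6% of 311 reads, 54.5% of 485 and 48.7% of 441 in 24 h air. Again no library of 4 d reached the lowest of 24 h. The means were 33.9% ± 2.44 in 4 d air and 51.9% ± 2.99 in 24 h air (SD, n = 3 each), a difference of -18.0 points with an adjusted p of 0.0498 in the quasi-binomial model. In nitrogen the means were 53.6% ± 2.44 at 4 d and 59.1% ± 0.503 at 24 h, a difference of -5.51 points, and the interaction had an adjusted p of 0.617.

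Both calls stood at the edge of the threshold. Over the alternatives, the adjusted p in the quasi-binomial model or limma was between 0.0273 and 0.375 for the chromosome 3 region and between 0.0430 and 0.375 for the chromosome 7 region. Leaving out 4 d library 1, 2 or 3, or 24 h library 1 or 2, ended both calls, with adjusted p-values of 0.0588 to 0.196 in the quasi-binomial model, and leaving out 24 h library 3 ended that on chromosome 7, at an adjusted p of 0.0505.

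Below these, 8 further regions with at least 20 reads in each air library had the largest negative differences, of -30.2 to -34.0 points, and did not pass the test. The region on chromosome 10 from 21667045 to 21667109 came nearest, with an adjusted p of 0.0778 in the quasi-binomial model. It passed with limma, at an adjusted p of 0.0273, and in the quasi-binomial model without library 3 of 24 h air, at 0.0303. It stood at 39.4%, 31.5% and 28.3% in 4 d air, against 66.1%, 74.1% and 52.4% in 24 h air, on 171 to 319 reads. Nitrogen held it at 67.3% ± 4.58 at 4 d and 67.9% ± 3.56 at 24 h. Of another such region, chr1:6160394-6160420, the levels were 10.2%, 3.02% and 3.22% in 4 d air, against 39.9%, 37.2% and 40.5% in 24 h air, on 32 to 67 reads.

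The libraries of a group could disagree strongly in such regions. The levels of chr12:6944170-6944177 were 2.43%, 0% and 7.99% in 4 d air, against 14.3%, 21.8% and 65.9% in 24 h air. The 0% rested on 35 reads, which allow up to 8.57% if they are separate reads. Without the third 24 h library, read 53 times, the difference was -14.6 points, beside -30.5 with it. Those of chr9:22628729-22628745 were 28.9%, 2.70% and 7.39% in 4 d air, against 36.6%, 76.0% and 28.3% in 24 h air, and the groups overlapped. Without library 2 of 24 h air its difference was -19.4 points, beside -34.0 with it. This region was the exception in the dry seed, at 17.9% ± 12.5, where the others of the 10 stood between 69.7% and 89.2%.

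The course in nitrogen differed among these regions. A further region, chr1:40703352-40703367, had a level of 29.6% ± 10.4 in 4 d air and 59.8% ± 10.2 in 24 h air, while nitrogen stood at 67.6% ± 6.02 at 4 d and 37.1% ± 9.37 at 24 h (SD, n = 3 each). It had the smallest adjusted p of the interaction, 0.0662 in the quasi-binomial model, which missed the threshold. Among the 10 regions named for negative differences, the nitrogen difference was also negative in 7, and it lay between -17.6 and 30.4 points. Of the 5606 regions read in all air and nitrogen libraries, 2941 (52.5%) had a negative nitrogen difference.

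The largest positive differences were found in thinly read regions. The 10 regions named for them had differences of 28.9 to 39.3 points and adjusted p-values of 0.108 to 0.822 in the quasi-binomial model, so none passed. Their median was 42 reads per library in 4 d air and 86.5 in 24 h air, against 64 and 102.5 for the 10 lower regions. Over the 5706 regions the medians were 123 and 145, so by median both named sets were thinly read. The part of read number in these differences was not tested. In chr6:19251261-19251323 the levels were 93.7%, 92.9% and 89.8% in 4 d air, on 20 to 58 reads, against 57.0%, 42.6% and 59.1% in 24 h air, on 75 to 169 reads. In chr1:27650493-27650587 they were 94.7%, 93.3% and 98.1% in 4 d air, against 54.7%, 66.1% and 74.7% in 24 h air. Its 4 d level of 95.3% ± 2.44 was close to the 96.9% ± 1.58 of the dry seed. All 10 had dry seed levels of 70.0% to 96.9%, beside a mean of 68.0% over the 5706 regions. In 8 of the 10 the libraries of the 2 times did not overlap, beside 4.07% of the 5706 regions with 4 d higher. The 10 were picked by their differences in these same libraries, so this count is a description only. Nitrogen also had a positive difference in 8 of the 10, and its differences lay between -11.8 and 23.3 points. Over the 5606 regions read in all air and nitrogen libraries, 52.5% had a negative nitrogen difference. In nitrogen chr6:19251261-19251323 differed by 14.2 points and chr1:27650493-27650587 by 18.3 points.

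**Figure D3:**
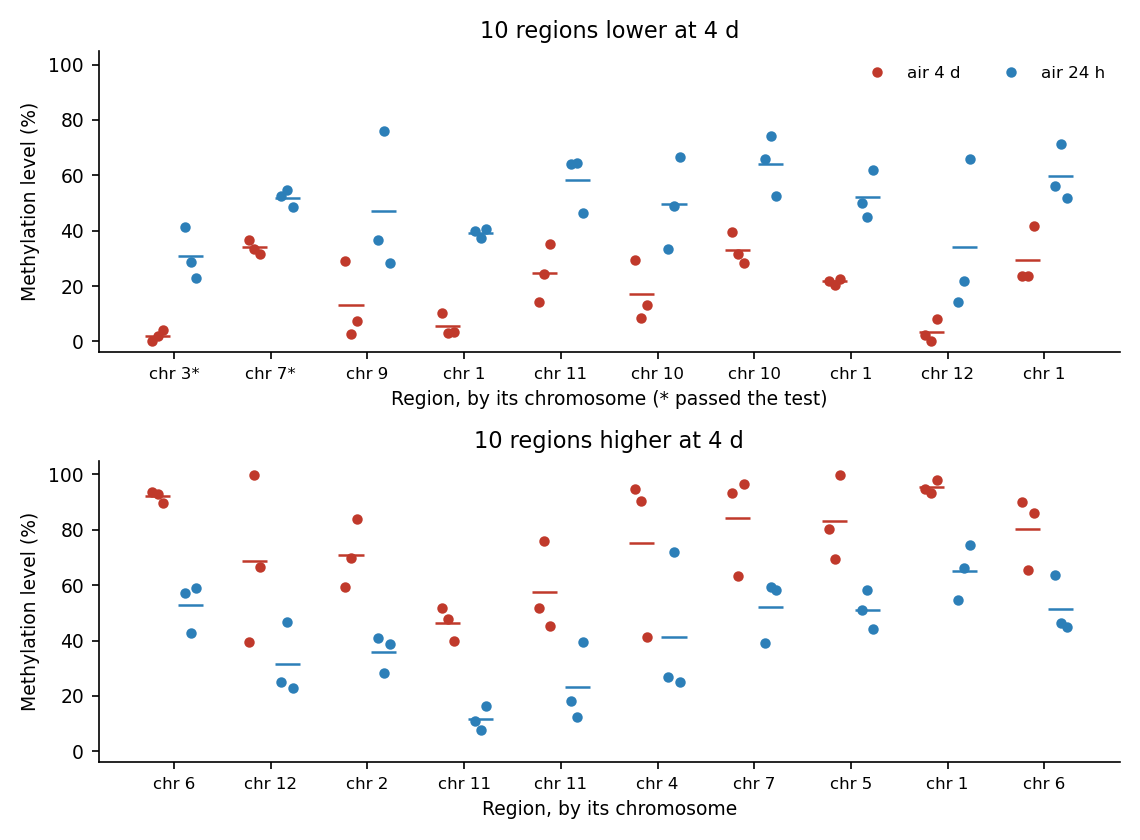
Methylation level in percent of the 10 regions named for negative differences (top) and the 10 named for positive differences (bottom), with 4 d air (red) left of 24 h air (blue) for each region, labelled by chromosome. Points are libraries and lines are means of 3. The 2 starred regions passed the test, with 4 d means of 1.97% and 33.9% against 24 h means of 30.9% and 51.9%.

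The difference in points was alike over the middle levels, while as a percent of the level it was smaller in highly methylated regions. In bins of the 24 h air level, the difference was -0.493 points under 10% (1214 regions), -3.08 from 10% to 20%, -3.55 from 20% to 30%, -3.80 from 30% to 40%, -4.16 from 40% to 60% and -3.05 at 60% or more (277 regions). The standard errors were 0.314 to 0.904 points. The 4 d and 24 h libraries overlapped only in the lowest bin. These bins use the same 24 h libraries as the difference, so a low reading at 24 h both places a region in a low bin and raises its difference.

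Bins of the 24 h nitrogen level avoid this. There the difference was -1.31 points under 10%, where 4 d air stood at 3.75% ± 0.201 and 24 h air at 5.06% ± 0.606. It was -3.23 from 10% to 20%, -3.65 from 20% to 30%, -2.82 from 30% to 40%, -3.58 from 40% to 60% and -2.61 at 60% or more, where 4 d air stood at 58.7% ± 1.01 and 24 h air at 61.3% ± 1.39 (SD, n = 3 each). As a percent of the 24 h air level, these differences were -25.9%, -23.7%, -16.4%, -9.18%, -8.34% and -4.25%. In all 6 nitrogen bins the libraries of 4 d air lay below those of 24 h air.

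The gap between the highest and the lowest bin had no stable sign. With bins of the 24 h air level, the highest bin differed by 2.56 points more than the lowest, a gap of -2.56 (exact two-sided permutation p = 0.1, the smallest possible). It was -1.30 with bins of the nitrogen level (exact two-sided permutation p = 0.1, again the smallest possible). With bins of 24 h air library 1 and the difference taken from libraries 2 and 3, the gap was 1.49 points in the other direction (exact permutation p = 0.3). In bins of the dry seed level the differences were -1.97 points under 40%, -2.60 from 40% to 60%, -3.36 from 60% to 80% and -2.41 at 80% or more.

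**Figure D4:**
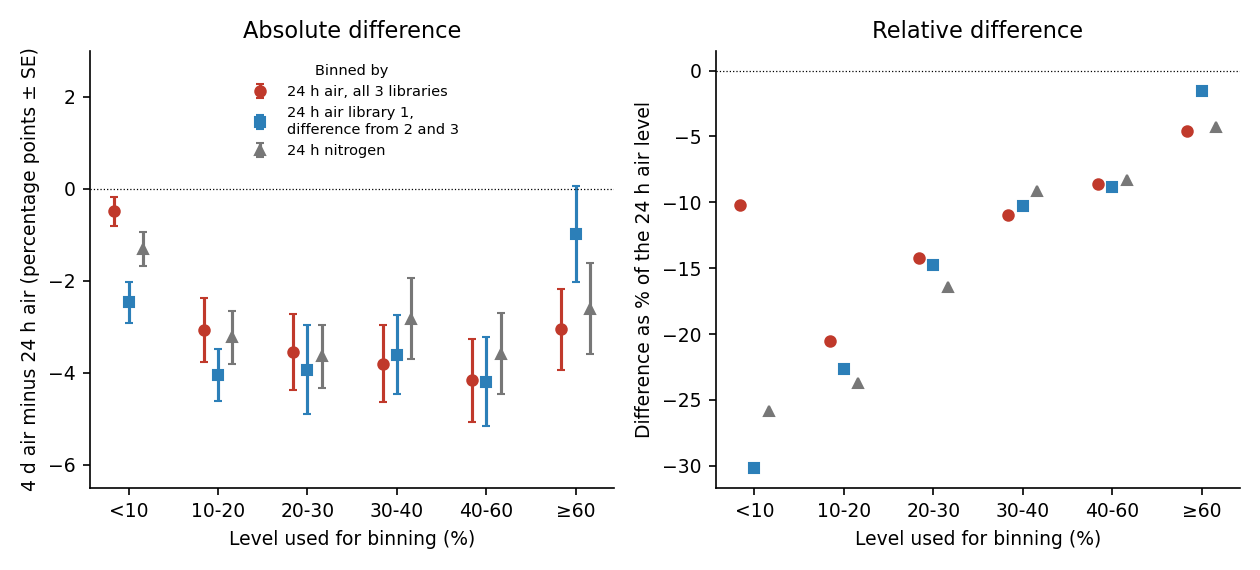
Difference of 4 d air minus 24 h air in percentage points (left, ±1 SE from 3 libraries per group) and as a percent of the 24 h air level of the bin (right), by the level used for binning. Red circles are bins of the 24 h air mean, blue squares bins of 24 h air library 1 with the difference taken from libraries 2 and 3, and grey triangles bins of the 24 h nitrogen mean. The absolute difference lies between -2.82 and -4.19 points in all but the lowest and highest bins. The relative difference shrinks from the bin of 10% to 20% towards high levels. Under 10% it is -10.2% in bins of the 24 h air mean, beside -20.5% from 10% to 20%.

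Longer regions differed slightly more. The difference was -2.55 ± 0.592 points under 30 bp (1216 regions), -2.93 ± 0.604 from 30 to 59 bp (1623), -2.83 ± 0.721 from 60 to 99 bp (1879) and -3.54 ± 0.894 at 100 bp or more (988), each with its standard error. In relative terms it was -10.8%, -11.5%, -10.5% and -12.0% of the 24 h air level. The longest bin exceeded the shortest by 4.78 ± 0.288 points at 4 d and by 5.77 ± 0.504 points at 24 h (SD, n = 3 each), a gap of -0.995 points with an exact two-sided permutation p of 0.1, the smallest possible. Among regions at 20% to 40% in 24 h nitrogen this gap was 0.357 points, in the other direction (exact permutation p = 0.3).

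A lack of overlap between the 2 times was more frequent in longer regions. The share of regions whose 4 d libraries all lay below the 24 h libraries was 13.7% under 30 bp and 26.4% at 100 bp or more, beside 18.5% over all regions. The opposite order was found in 4.19% and 4.86%, beside 4.07% overall. Differences of at least 10 points upward made up 5.76% of the shortest and 2.23% of the longest regions, and those of at least 10 points downward 15.8% and 16.7%. The longest regions were also the more deeply read, with median reads per library of 278 in 4 d air and 317 in 24 h air, beside 52 and 63 for the shortest, and the part of read number was not tested.

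Deeply read regions stood out in the same way. With 240 or more reads per library on average (1143 regions), the difference was -4.22 ± 0.844 points and 30.6% of the regions had no overlap with 4 d lower, against -2.33 ± 0.443 points and 10.9% of the 836 regions with fewer than 60 reads. Their 24 h air levels were 36.1% and 19.6%, and in relative terms the differences were -11.7% and -11.9%. Upward differences of at least 10 points made up 1.40% of the deepest and 6.82% of the thinnest regions. The deepest regions were also the most methylated at 24 h, and the part of either was not tested.

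In points, regions with few differentially methylated sites differed most. With 3 to 5 sites (2270 regions) the level was 27.4% ± 0.486 in 4 d air and 31.1% ± 1.21 in 24 h air, a difference of -3.74 points. With 20 or more sites (594 regions) it was 16.3% ± 0.790 and 17.6% ± 0.712 in the same order (SD, n = 3 each), a difference of -1.32 points, and the libraries overlapped. With 6 to 9 sites the difference was -3.30 points and with 10 to 19 sites -1.99 points. The relative differences were -12.0% with 3 to 5 sites, -12.2% with 6 to 9, -9.15% with 10 to 19 and -7.50% with 20 or more. Regions with 3 to 5 sites were also more methylated at 24 h than those with 20 or more, and the part of level was not tested. In the 99 regions where the authors listed no 24 h air library as low, the difference was -1.27 ± 0.877 points, with overlapping libraries (exact permutation p = 0.3), and in the 2931 where they listed all 3 it was -3.22 ± 0.803 points. That list was drawn from the same 24 h air libraries that enter the difference.

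Every one of the 12 chromosomes stood lower at 4 d, with no overlap between the 3 libraries of each time. The differences lay between -2.18 and -4.24 points, with standard errors of 0.558 to 0.865. The exact two-sided permutation p was 0.1 on each chromosome, also after Benjamini-Hochberg adjustment over the 12. Regions below 0 made up 63.0% (chromosome 9) to 73.9% (chromosome 12). The 7 regions on a sequence the table calls S stood at 21.5% ± 2.14 in 4 d air and 20.8% ± 3.66 in 24 h air (SD, n = 3 each), with overlapping libraries.

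Chromosome 10 had the largest difference. Its 294 regions stood at 22.4% ± 0.323 in 4 d air and 26.6% ± 1.37 in 24 h air (SD, n = 3 each), a difference of -4.24 points or -15.9% of the 24 h level. Relative to the other regions, chromosome 10 was 1.05, 0.914 and 1.16 points lower in the 4 d libraries, as gaps of -1.05, -0.914 and -1.16 show, and 0.250, 0.705 and 0.0957 points higher in the 24 h libraries. The gaps did not overlap, and their difference was -1.39 ± 0.196 points (SE). The exact two-sided permutation p was 0.1 and the adjusted p over the 12 chromosomes 0.45. With 3 libraries against 3 no p under 0.1 was possible, so this test could not set any chromosome apart. Chromosome 6 had the smallest difference, -2.18 points, with 23.4% ± 0.344 in 4 d air and 25.6% ± 1.21 in 24 h air. Its gaps to the other regions did not overlap either, in the opposite direction, and their difference was 0.819 ± 0.182 points (SE). There too the exact two-sided permutation p was 0.1 and the adjusted p 0.45.

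**Figure D5:**
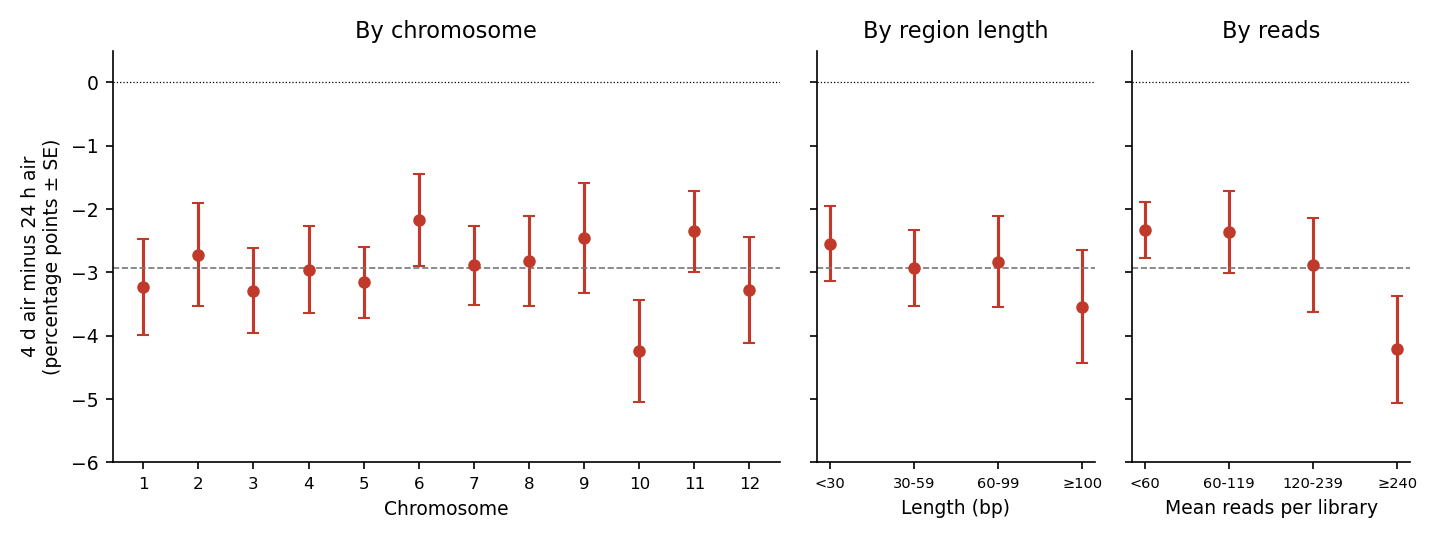
Difference of 4 d air minus 24 h air in percentage points (±1 SE from 3 libraries per group) by chromosome (left), region length in bp (middle) and mean reads per library (right). The dashed line is the difference over all regions, -2.92 points, and the dotted line is 0. All points lie below 0, and chromosome 10 is the lowest of the chromosomes at -4.24.

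Along the chromosomes, 75 of the 76 windows of 5 Mb with at least 20 regions had a difference below 0, and in 58 of them the libraries did not overlap. The median window stood at -2.96 points, and the SD between windows was 1.26 points. The median standard error of 1 window was 0.914 points. That error includes spread between libraries that all windows share, so it does not measure the noise between windows. The largest difference was on chromosome 10 from 20 to 25 Mb, with 26.3% ± 0.530 in 4 d air and 33.0% ± 1.54 in 24 h air (44 regions, SD, n = 3 each), a difference of -6.66 points. The exception was chromosome 12 from 10 to 15 Mb, with 27.6% in 4 d air and 26.8% in 24 h air over 23 regions, a difference of 0.763 ± 0.945 points (SE) with overlapping libraries. On chromosome 8 the window from 15 to 20 Mb stood at 27.2% ± 0.894 in 4 d air and 27.2% ± 1.08 in 24 h air, over 75 regions. The windows were not tested against each other.

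Few of these regions were among those the authors picked for 4 d air against 4 d nitrogen. An overlap of at least 1 bp with that table was found for 19 of the 5908 regions (0.322%), which was 0.892% of the 2131 regions of the other table. The 19 stood at 35.7% ± 2.28 in 4 d air and 49.6% ± 1.44 in 24 h air (SD, n = 3 each), a difference of -13.8 points. In 12 of the 19 (63.2%) the libraries did not overlap with 4 d lower, beside 18.3% of the other 5687 regions. The authors picked those regions for a difference that includes the 4 d air libraries, so these values are a description and were not tested.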

How the data were processed

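The values analysed were those of 1 table, in which the authors deposited, for each region and library, a read count, a methylated read value and a percent. Per the file headers the count is the total per region, and whether it counts reads per cytosine is not stated. The methylated values deposited by the authors were treated as estimated counts and rounded, because each is a whole number (within 0.01) times a library factor of 0.9977 to 0.9983. The deposited percent is the methylated value over the total and was used as the level. No source used here names the aligner, the region caller or the genome build.

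Levels on fewer than 10 reads were left out. Exact two-sided permutation tests over libraries were used for means over regions. Single regions were tested with a quasi-binomial logistic model over all 18 libraries (dispersion of at least 1, 2 or more libraries per compared group, Benjamini-Hochberg adjustment over all tested regions). It was written with numpy 2.4.6 and scipy 1.17.1 under Python 3.11.15 and tested on simulated data. Limma 3.58.1 on the levels was an alternative.

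The regions named had at least 20 reads in each air library: those called, then those with the largest differences, to 10 in each direction. Further alternatives changed the read minimum, the libraries giving the spread, the binning, the weighting and the replicates used. The group of regions, the bins and the tests were chosen with earlier results of these data known. The table for coleoptiles given air after nitrogen was not used here.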

Additional observations from a re-analysis of the deposited data

How the results depend on the processing

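The mean difference kept its direction under every alternative run, from -3.42 to -2.33 points when 1 library was left out, -4.09 points with regions weighted by reads and -3.01 points with a minimum of 20 reads. The number of regions called lower was less stable. Against 2 in the quasi-binomial model with all libraries, it was 0 with a minimum of 5 reads, 0 with the spread of the 2 air groups alone, 0 with that of the 4 groups of 24 h and 4 d in air and nitrogen, 1 at 20 points or more, 4 with limma, and 0 to 2 when 1 library was left out. No alternative called a region higher. The cause of these changes was not tested. The gap between the highest and lowest level bins was reversed, at 1.49 points, with bins of 24 h air library 1, and the gap between long and short regions was reversed, at 0.357 points, among regions of 20% to 40% in 24 h nitrogen.

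No pairing by replicate number was seen in the levels, where deviations of same-numbered libraries had correlations of -0.0134, 0.00287 and -0.00899 over regions. This does not show whether same-numbered libraries were prepared together. With the replicate number as a block, 4 regions were called lower, 1 of them shared with the 2 above, and the mean difference was -2.92 points. The block and limma both called chr10:21667045-21667109, at adjusted p-values of 0.0430 and 0.0273, and chr1:10469370-10469436, which was picked out after its values were seen (34.6% in 4 d air and 63.8% in 24 h air, on 145 reads or more). Of 26 values of the 2 called regions under alternatives, 19 no longer passed. Of 234 values of the other 18 named regions, 3 newly passed, all of chr10:21667045-21667109, and no value changed direction. With 3 libraries per group, no comparison of library means could reach an exact p under 0.1, and upward differences of at least 10 points were more frequent in short and in thinly read regions.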
